A study of Homo sapiens with 4 samples.

Results

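The Kruppel-like factors (KLFs) are transcription factors that bind GC-rich and CACCC sequences through a run of zinc fingers at the carboxy end. They were read in HepG2, an established human hepatoma cell line, after depletion of the histone demethylase LSD1 (gene KDM1A). The 10 genes described are KLF2, KLF3, KLF4, KLF5, KLF6, KLF9, KLF10, KLF11, KLF13 and KLF15, out of 19775 genes measured. They were found as the 29 probe sets whose platform annotation names a single gene, that gene being on this list, out of 41091 such probe sets. The list was chosen on earlier readings of these same arrays, in which knockdown was compared with control, and it leaves out other KLF genes. The knockdown-against-control values of the members are therefore given as a description, with no test.

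LSD1-KD cells received siRNA-1 against LSD1 (1 array) or siRNA-2 against LSD1 (1 array), and control cells received an siRNA against GL3, the firefly luciferase reporter (2 arrays). The medium of all cells held 25 mM glucose and 10% serum, cultures were about 50% confluent at transfection, and knockdown lasted 4 days. The depletion was transient and in a single cell line. The labels do not describe arrays of a group as separate cultures, so errors rest on the spread between arrays and not between known separate cultures. For knockdown minus control, limma moderates this spread toward the spread over all genes. The arrays of both siRNAs form 1 group there, so any difference between the siRNAs enters the error. The values are on a log2 scale and were centred by the authors in each probe set, which keeps differences between arrays and removes levels, so no order of levels between genes can be given. A probe set's middle pair of values is equal in size and opposite in sign for the same reason. Probe sets were put into 3 estimated brightness classes (8 or above, 4 to 8, and below 4 in log2, the last called dim), inferred from how finely the stored numbers are spaced. Where a gene has several probe sets, one from its brightest class represents it.

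KLF proteins fall into subgroups by the cofactors they bind. KLF2, KLF4, KLF5 and KLF6 act mainly as activators through histone acetyltransferases. KLF3 represses through CtBP, a corepressor whose complexes are known to contain LSD1, while KLF9, KLF10, KLF11 and KLF13 bind the SIN3 corepressor. KLF15, known in liver for gluconeogenesis and amino acid breakdown, belongs to none of these subgroups. In liver KLF6 is known as an early-response gene after injury, and several KLF genes are induced within minutes to hours by serum, TGF-beta, glucocorticoids or thyroid hormone.

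Promoter windows are shown for KLF4, KLF5 and KLF6, the activator-type members with lower values on both knockdown arrays, and for KLF2, the activator-type member without such a shift. They come from RefSeq (build GRCh38.p14), run 5′ to 3′ from 250 bases before to 50 bases after a gene's start, and are given in lower case. Capitals mark the GC box GGGCGG and the core CACCC, the letters that KLF and SP proteins bind, on either strand. KLF5 has 2 annotated starts, and the arrays do not tell which one was in use.
KLF4 (chr9:107489720-107490019, minus strand): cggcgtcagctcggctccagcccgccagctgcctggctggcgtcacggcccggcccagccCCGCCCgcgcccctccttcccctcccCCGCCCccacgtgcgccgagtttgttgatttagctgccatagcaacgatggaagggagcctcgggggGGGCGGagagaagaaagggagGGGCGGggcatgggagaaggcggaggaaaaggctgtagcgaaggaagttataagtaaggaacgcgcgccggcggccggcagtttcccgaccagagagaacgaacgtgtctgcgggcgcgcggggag
KLF5, upstream start (chr13:73054726-73055025, plus strand): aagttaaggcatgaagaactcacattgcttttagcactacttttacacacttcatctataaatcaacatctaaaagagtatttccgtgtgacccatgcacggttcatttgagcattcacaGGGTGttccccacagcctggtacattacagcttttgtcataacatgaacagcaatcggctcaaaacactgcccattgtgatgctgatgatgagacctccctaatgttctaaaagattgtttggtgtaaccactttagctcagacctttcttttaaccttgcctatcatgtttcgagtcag
KLF5, downstream start (chr13:73058755-73059054, plus strand): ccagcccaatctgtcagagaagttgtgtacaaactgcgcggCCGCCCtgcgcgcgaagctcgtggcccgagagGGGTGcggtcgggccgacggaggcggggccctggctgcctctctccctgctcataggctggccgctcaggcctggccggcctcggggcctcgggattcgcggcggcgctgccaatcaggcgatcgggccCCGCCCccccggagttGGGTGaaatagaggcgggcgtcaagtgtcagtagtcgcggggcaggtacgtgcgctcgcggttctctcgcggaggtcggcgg
KLF6 (chr10:3785160-3785459, minus strand): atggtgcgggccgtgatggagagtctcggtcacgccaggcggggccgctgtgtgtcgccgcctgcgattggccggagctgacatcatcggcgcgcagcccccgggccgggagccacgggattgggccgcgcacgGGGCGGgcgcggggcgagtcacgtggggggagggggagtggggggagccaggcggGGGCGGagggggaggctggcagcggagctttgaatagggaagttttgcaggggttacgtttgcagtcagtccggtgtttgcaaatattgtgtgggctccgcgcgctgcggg
KLF2 (chr19:16324576-16324875, plus strand): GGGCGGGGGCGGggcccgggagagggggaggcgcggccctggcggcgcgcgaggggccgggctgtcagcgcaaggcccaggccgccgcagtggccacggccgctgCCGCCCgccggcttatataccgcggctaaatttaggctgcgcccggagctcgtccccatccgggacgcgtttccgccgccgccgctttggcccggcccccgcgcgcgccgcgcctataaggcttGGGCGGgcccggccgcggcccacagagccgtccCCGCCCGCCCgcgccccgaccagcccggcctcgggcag

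The 8 members matched in the promoter table have 10 windows. The GC box occurs in 8 of these windows, against 45.0% of all 35116 windows, and CACCC in 4 of 10, against 59.9%. The motifs are counted separately and can share letters. The E-box CACGTG, bound by clock and MYC-family proteins, lies in 4 windows (1 each of KLF4, KLF6, KLF11 and KLF15), against 7.26% of all windows. The cAMP response element TGACGTCA lies in 1 window of KLF11, against 1.85%. The MEF2 motif lies in 1 of the 10 windows, that of KLF2, starting at position -120, against 0.572% of all windows. The CArG box of serum response factor lies in 0 of 10, against 1.29%. The windows of KLF4 and KLF6 hold 69.0% and 70.7% G and C, and those of KLF5 hold 40.7% at the upstream start and 71.3% at the downstream start. These matches describe letters and not binding.

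On the knockdown arrays 6 of the 10 members lay below both controls and 1 lay above both, while 3 overlapped the controls. Over all genes, 25.4% lay below and 23.6% lay above by the same rule. The median difference of the members was -0.19, beside 0.00 for all genes. Taken alone, siRNA-1 gave a median of -0.24 and siRNA-2 one of -0.19. Of the 29 probe sets, 18 lay below both controls and 3 lay above, beside 26.8% and 22.0% of all single-gene probe sets. When all probe sets of a gene were averaged, 9 of 10 members lay below, beside 27.1% of all genes. That count took in KLF2, with an averaged difference of only -0.05, and KLF3 (-0.37), whose probe sets went in opposite directions. KLF11 was the exception, at 0.31. Since the members were chosen on this contrast, these counts are descriptions. In an array of whole cultures, fewer cells of a type and less RNA per cell cannot be told apart.

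**Figure D1:**
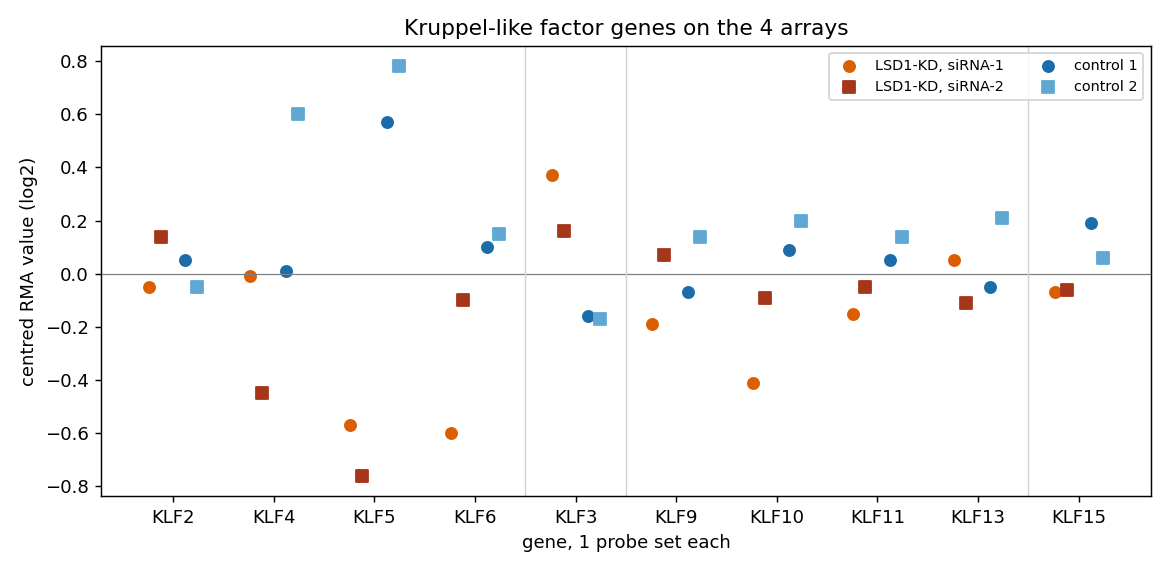
Centred RMA value (log2) on each of the 4 arrays for the probe set that represents each member, with the LSD1-KD arrays left of the controls and grey lines between subgroups. KLF5 shows the widest gap between the groups, KLF3 alone lies above both controls, and KLF2, KLF9 and KLF13 overlap them.

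KLF5, which drives proliferation of epithelial cells, had the largest difference of the 10. It read -0.57 (siRNA-1) and -0.76 (siRNA-2) in LSD1-KD cells, against 0.57 and 0.78 on the control arrays. The groups lay far apart, and the difference of -1.34 ± 0.14 (n = 2 arrays in each group, with the standard error, SE, of the limma fit), or 2.54-fold lower, was larger than the gap of 0.21 between the controls. The other KLF5 probe set read -0.58 and -0.72, against 0.58 and 0.72, so that both probe sets gave nearly the same values on every array.

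KLF4, a factor of gut and skin differentiation known from cell reprogramming, was also lower with both siRNAs, but its probe sets differed in size. Probe set 221841_s_at read -0.58 and -0.53 in LSD1-KD cells, against 0.53 and 0.70 in control cells, a difference of -1.17 ± 0.12. Probe set 220266_s_at read -0.01 and -0.45, against 0.01 and 0.60. Here the siRNA-1 array nearly met control 1, the controls differed from each other by 0.59, and the difference was -0.53 ± 0.27. Both probe sets fall in the same brightness class, and 220266_s_at represents the gene in the fit only because its identifier sorts first.

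KLF6 has 5 probe sets, and all 5 lay below both controls. The representing probe set read -0.60 (siRNA-1) and -0.10 (siRNA-2) in LSD1-KD cells, against 0.10 and 0.15 on the control arrays. The siRNA-2 array lay close to the controls and the siRNA-1 array lay clearly below them, with a difference of -0.48 ± 0.19 over both. Differences of the 5 probe sets ran from -0.68 to -0.20. The lowest, 208960_s_at, read -0.89 and -0.15, against 0.15 and 0.16. The 4 probe sets in the brightest class all showed the larger shift with siRNA-1, and 211610_at, in the middle class, showed the larger shift with siRNA-2.

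KLF2, a factor of endothelial and lymphocyte quiescence, showed no such shift. Its representing probe set read -0.05 and 0.14 in LSD1-KD cells, against 0.05 and -0.05 in control cells. The arrays overlapped and the difference was 0.05 ± 0.12. Its dim probe set 226646_at overlapped too, at -0.15 ± 0.16. Together the 4 activator-type genes had 9 of 11 probe sets below both controls and 0 above. Over all single-gene probe sets the shares were 26.8% and 22.0%. KLF6 alone gave 5 of the 9, and probe sets of a gene are not independent readings.

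KLF3, the CtBP-binding repressor, gave opposite readings in different probe sets. The brightest, 225133_at, read 0.37 (siRNA-1) and 0.16 (siRNA-2) in LSD1-KD cells, against -0.16 and -0.17 on the control arrays, a difference of 0.43 ± 0.12. Both knockdown arrays lay above both controls there. The other 3 probe sets lay below both controls. Among them 225140_at read -0.08 and -1.20, against 0.08 and 0.27, with a difference of -0.82 ± 0.39 that came mostly from the siRNA-2 array. Probe set 219657_s_at read -0.17 and -0.86, against 0.23 and 0.17, a difference of -0.72 ± 0.25. Probe set 222913_at read -0.05 and -0.56, against 0.05 and 0.11. The direction of KLF3 therefore depends on the probe set, and the mean over all 4 was -0.37. Which part of the transcript each one reads was not analysed here.

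**Figure D2:**
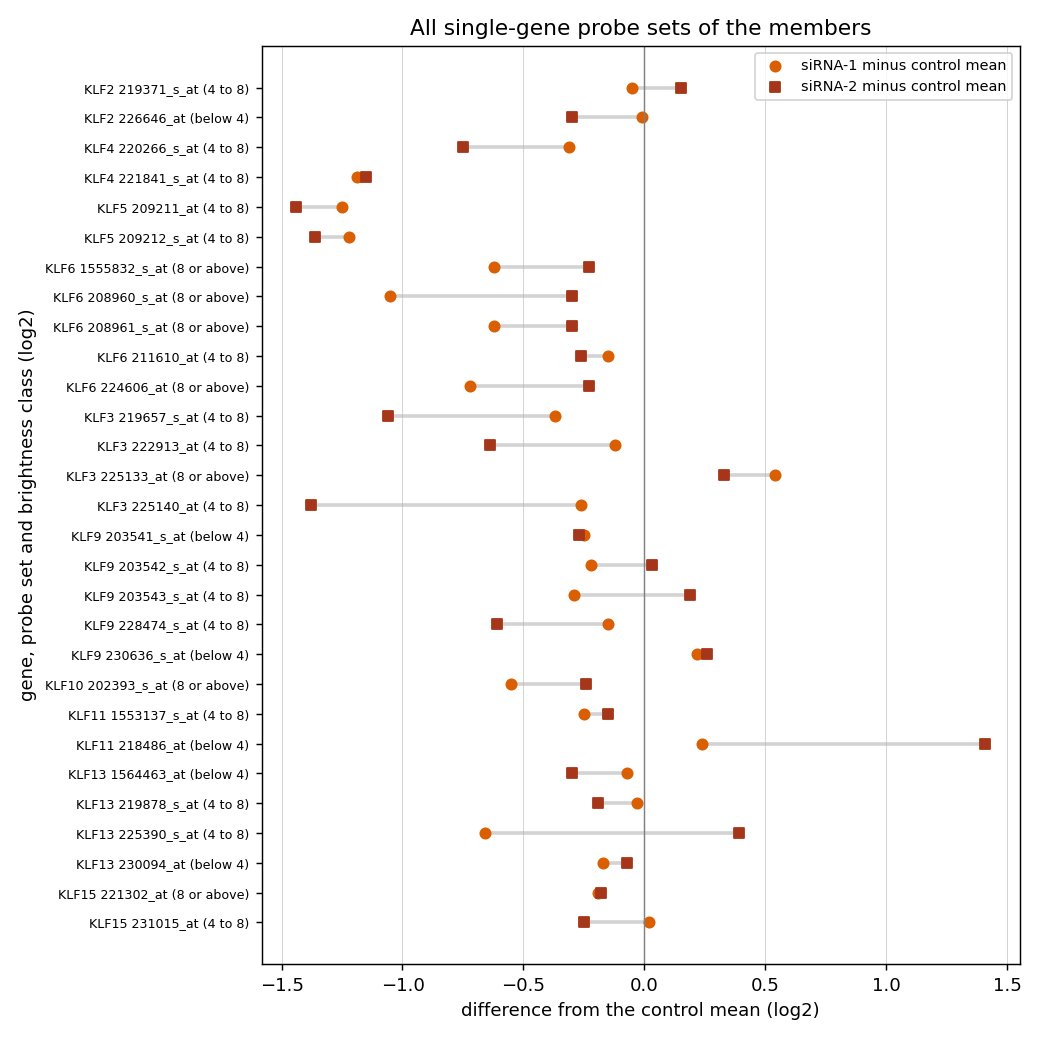
Difference from the control mean (log2) for each of the 29 probe sets, with siRNA-1 as circles and siRNA-2 as squares, joined by a grey line; the brightness class (log2) stands in brackets. Both KLF5 probe sets, and KLF4 221841_s_at, show nearly equal shifts with each siRNA, whereas KLF3 225140_at, KLF11 218486_at and KLF13 225390_s_at differ by over 1 between the siRNAs.

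Of the SIN3-binding members, KLF10 and KLF11 are known as TGF-beta-inducible early genes. The single KLF10 probe set read -0.41 (siRNA-1) and -0.09 (siRNA-2) in LSD1-KD cells, against 0.09 and 0.20 on the controls. The groups did not overlap, and the difference was -0.40 ± 0.15, with the siRNA-1 array lowest as for KLF6. KLF11 read -0.15 and -0.05 in LSD1-KD cells, against 0.05 and 0.14 in control cells, in probe set 1553137_s_at (-0.20 ± 0.11). Its dim probe set 218486_at went the other way, with 0.10 and 1.26, against -0.19 and -0.10. That difference of 0.82 ± 0.40 came mostly from the siRNA-2 array. No single direction can be given for KLF11.

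KLF9, a thyroid hormone and glucocorticoid response gene, and KLF13, known from T-cell activation, overlapped the controls. KLF9 read -0.19 and 0.07 with siRNA-1 and siRNA-2, against -0.07 and 0.14 on the controls (-0.10 ± 0.15). Over its 5 probe sets the differences ran from -0.38 to 0.24, with 2 below, 1 above and 2 overlapping. KLF13 read 0.05 and -0.11, against -0.05 and 0.21 (-0.11 ± 0.14). Its 4 probe sets had differences from -0.18 to -0.11, of which 1, a dim one, lay below both controls. The 4 SIN3-binding genes had 5 of 12 probe sets below and 2 above, beside 26.8% and 22.0% of all single-gene probe sets.

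KLF15 read -0.07 (siRNA-1) and -0.06 (siRNA-2) in LSD1-KD cells, against 0.19 and 0.06 on the control arrays. Both knockdown arrays lay just below the lower control, and the difference of -0.19 ± 0.11 was close in size to the gap of 0.13 between the controls. Its other probe set overlapped the controls at -0.12 ± 0.15.

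The knockdown arrays carried different siRNAs, with 1 array for each, so their values compare these arrays and not the siRNAs. With siRNA-2 KLF6 exceeded its siRNA-1 value by 0.49 ± 0.08, KLF10 by 0.31 ± 0.10 and KLF9 by 0.25 ± 0.14. The siRNA-2 minus siRNA-1 difference was -0.44 ± 0.35 for KLF4 and -0.21 ± 0.08 for KLF3. These values are of the representing probe sets and depend on that choice. The difference was 0.04 in KLF4 221841_s_at, -0.11 in KLF6 211610_at and -0.46 in KLF9 228474_s_at. In the other KLF3 probe sets it was -0.69, -0.51 and -1.12. These SEs take their spread from the 2 controls alone, which limma moderates toward the spread of the controls over all genes. Each knockdown array was given the same spread. Over all probe sets the siRNA-2 array had the widest values, with an SD of 0.384, beside 0.197 for siRNA-1 and 0.164 and 0.154 for the controls. Under that assumption the limma fit with 3 groups put 6.77% of all genes and 0 of the 10 members past an adjusted p of 0.05 (the smallest was 0.0686, for KLF6), and quantile normalization put 0 of all genes past it. At an unadjusted p under 0.05 stood 1 of the 10 members, beside 33.3% of all genes, and, with 1 test per probe set, 9 of the 29 probe sets, beside 30.5% of all. The adjusted p of KLF6 was 0.0424 with array medians set to 0 and 0.0442 without dim genes. KLF11 and KLF3 were past 0.05 with the mean of probe sets (the smaller p was 0.0383), and KLF11 without _x_at and _s_at probe sets (0.0488). Quantile normalization acted on the centred values and gave all arrays the same spread. It thereby removed the wider spread of the siRNA-2 array by construction, so its count is no independent check. With neither siRNA replicated, no member is called different or alike between them.

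Facts of the arrays run along the same division into knockdown and control. KDM1A, the siRNA target, read -1.55 and -1.17 in LSD1-KD cells, against 1.23 and 1.17 in control cells. Hybridization spike-ins, added in fixed amounts, had a median difference of 1.36 over 18 probe sets. The ACTB 5′ probe set relative to its 3′ probe set differed by -0.61 between knockdown and control, and the same measure for GAPDH by -0.18. Their part in the KLF values was not tested. All 8 measured hepatocyte markers fell in the brightest class, as did 1 of 4 endothelial, 1 of 3 leukocyte, 3 of 4 fibroblast and 0 of 2 erythroid markers. The 8 hepatocyte markers all lay above both controls, beside 23.6% of all genes, with a median of 0.42. Of the endothelial markers PECAM1 differed by 0.49 ± 0.12 and lay above both controls. The dim VWF, CDH5 and TEK overlapped the controls, and the median was 0.11. Of the leukocyte markers CD14 differed by 1.31 ± 0.30, whereas CD3E (-0.21) and PTPRC (-0.11) overlapped the controls, and the median was -0.11. Of the fibroblast markers COL1A1 differed by 1.88 ± 0.54 and DCN by -0.27 ± 0.11, whereas COL1A2 (0.15) and PDGFRB (-0.27) overlapped, and the median was -0.06. Across all genes 1 of 19775 passed the limma test of knockdown against control (0.00506%), namely CD36, which was higher and is named after its value was seen, with 2879 at an unadjusted p under 0.05.

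Other KLF genes, which the selection left out, were read by the same rule. Of 7 measured, 2 were below both controls and 0 above, beside 25.4% and 23.6% of all genes. Their median was -0.06, and 0 passed the limma test or had an unadjusted p under 0.05. KLF12, a repressor of the same subgroup as KLF3, read -0.48 and -0.06 in LSD1-KD cells, against 0.06 and 0.06 in control cells (-0.32 ± 0.17). KLF16 read -0.10 and -0.18, against 0.10 and 0.12 (-0.25 ± 0.10). Both differences were smaller in size than those of KLF4, KLF5, KLF6 and KLF10. They were larger than those of the members KLF11 (-0.20) and KLF15 (-0.19). KLF14 (0.12), KLF7 (0.05), KLF1 (0.00), KLF17 (-0.06) and the CtBP-binding KLF8 (-0.08) overlapped the controls.

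The SP proteins share the zinc finger type and the GC box with the KLFs. Of 8 measured SP genes 3 lay above both controls and 3 below, beside 23.6% and 25.4% of all genes, with a median of 0.11. None passed the limma test, and 4 had an unadjusted p under 0.05, beside 14.6% of all genes. SP4 read 0.16 and 0.61, against -0.22 and -0.16 (0.58 ± 0.18), and SP3 read 0.18 and 0.33, against -0.18 and -0.20 (0.45 ± 0.11). SP5 (0.33 ± 0.18) was higher mainly with siRNA-2. SP6 (-0.51 ± 0.15), SP2 (-0.38 ± 0.11) and the dim SP7 (-0.21 ± 0.11) were lower with both siRNAs, while SP1 (0.14), the ubiquitous member, and SP8 (0.08) overlapped.

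**Figure D3:**
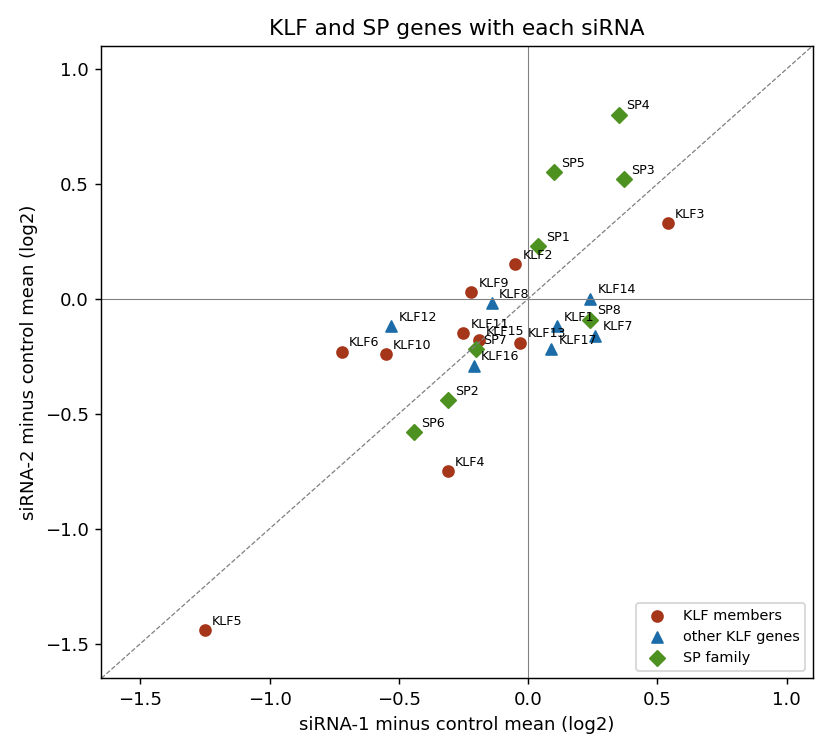
Difference from the control mean (log2) with siRNA-1 (horizontal) and with siRNA-2 (vertical) for the 10 members, 7 other KLF genes and 8 SP genes, 1 point per gene; the dashed line marks equal values. KLF5 stands alone at the lower left (-1.25 and -1.44), KLF6 and KLF10 lie above the line, and SP3, SP4 and SP5 lie on the positive side with KLF3.

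Proteins that work with the KLFs were read from related lists, and the values given for their genes are LSD1-KD minus control differences in log2 with the SE. The 13 lists held 128 measured genes, of which 0 passed the limma test (smallest adjusted p = 0.0552). Of these 128, 28 had an unadjusted p under 0.05 in that test, 21.9% beside 14.6% of all genes. The lists were chosen with earlier results of these data known, so these shares are descriptions. Genes counted as below or above lay beyond both controls on both knockdown arrays, as 25.4% and 23.6% of all genes did. Corepressors had a median of 0.02 over 13 genes, 3 below and 2 above. Among them the CtBP gene CTBP2 read -0.33 ± 0.14, FHL3, a partner of KLF3 in repression, -0.38 ± 0.10, and HDAC3 0.58 ± 0.16. The 4 coactivators had a median of 0.12 and all overlapped the controls. Of 6 ubiquitin ligases that act on KLF proteins, FBXW7 read -0.57 ± 0.13, FBXO32 -0.10 ± 0.10 and WWP1, which targets KLF5, 0.45 ± 0.20.

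Signals upstream of the KLF genes were mixed. In the ERK5 and MEF2 module, known for inducing KLF2 and KLF4, 3 of 7 genes lay below and 1 above, with a median of 0.02. MAP3K2 read -0.77 ± 0.19, MEF2D -0.22 ± 0.11 and MAPK7, the gene of ERK5, 0.32 ± 0.12. TGF-beta ligands, receptors and SMADs had a median of -0.19 over 8 genes, 3 below and 0 above, with TGFB1 at -0.87 ± 0.18, SMAD4 at -0.60 ± 0.38 and SMAD3 at -0.26 ± 0.13. The SMAD4 value came from siRNA-2 (-1.15), since siRNA-1 gave -0.06. Early TGF-beta response genes had a median of -0.02, but -0.18 with the mean of probe sets. Among them LTBP2 stood at -0.54 ± 0.11, SMAD6 at -0.30 ± 0.14 and SKIL at 0.62 ± 0.26.

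Genes that share inducers with KLF members gave different pictures. Immediate-early genes, induced within minutes of serum like KLF6 and KLF10, had a median of -0.34. On both knockdown arrays 15 of 20 lay below both controls and 1 above, beside 25.4% and 23.6% of all genes. Taken alone, siRNA-1 gave a median of -0.34 and siRNA-2 one of -0.55. EGR1 read -2.49 ± 0.10, the dim EGR3 -2.07 ± 0.45 and IER3 -1.33 ± 0.27. Glucocorticoid response genes, grouped for KLF9 and KLF15, had 5 of 9 below and 1 above, with a median of -0.25 that turned to 0.02 with the mean of probe sets. In that list SGK1 read 0.97 ± 0.56, FKBP5 -0.69 ± 0.43 and DUSP1 -0.35 ± 0.18, and for SGK1 and FKBP5 the siRNA-2 differences (1.79 and -1.31) were far larger than those of siRNA-1 (0.15 and -0.07). Clock genes had 4 of 15 below and 4 above, with the clock output DBP at 0.76 ± 0.29 and BMAL1, the core activator, at 0.75 ± 0.30, and the repressor BHLHE40 at -0.68 ± 0.20.

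Reported targets of KLF4, KLF5 or KLF6 had a median of -0.06 over 18 genes, 6 below and 3 above. The epithelial cadherin CDH1 differed by 2.18 ± 0.48, and siRNA-2 (2.87) gave more than siRNA-1 (1.48). TGFB1, given above, and the urokinase gene PLAU (-0.65 ± 0.20) were lower. Reported liver targets of KLF15 had 4 of 8 below and 3 above. The tyrosine breakdown enzyme HPD read 0.79 ± 0.15, the urea cycle gene OTC, read by a dim probe set, 0.48 ± 0.16 and the lysine breakdown enzyme AASS 0.45 ± 0.12. The median of this list was -0.07, but 0.16 when probe sets were averaged, and 0.45 without _x_at and _s_at sets.

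**Figure D4:**
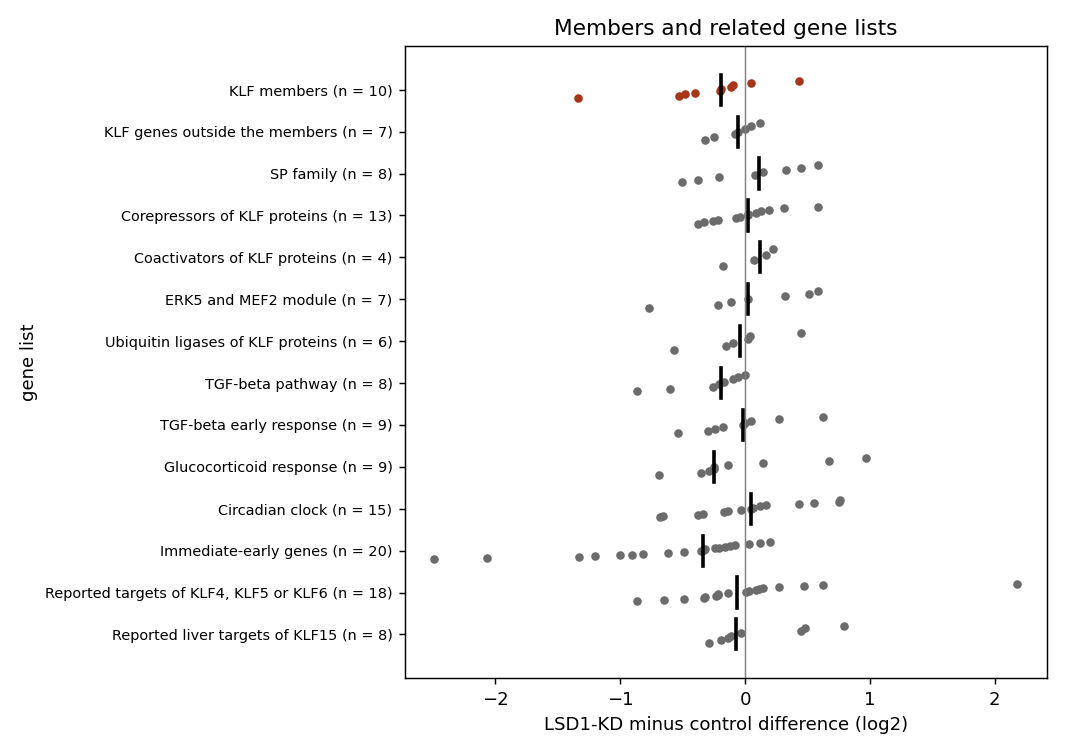
LSD1-KD minus control difference (log2) of each measured gene (points) in the KLF members and the 13 related lists, with a black bar at the list's median. The medians of the members (-0.19), the glucocorticoid list (-0.25) and the immediate-early list (-0.34) lie on the negative side, and other medians lie between -0.19 and 0.12.

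The genes closest to KLF5 over the 4 arrays were CD52, AKAP12 and ASB4, by Euclidean distance between the centred values. CD52, read by a dim probe set, lay at a distance of 0.08, with -0.62 and -0.78 in LSD1-KD cells, against 0.62 and 0.82 in control cells. AKAP12 lay at 0.17 and ASB4 at 0.18, with differences of -1.23 and -1.22. The likeness rests on 4 values per gene and describes these arrays.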

How the data were processed

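RNA of 4 HepG2 samples was read on Affymetrix HG-U133 Plus 2.0 arrays, and groups were taken from the sample titles. Per the submitters' processing notes the authors used RMA; no version was found. The deposited values, taken as log2, had a median of 0 over the 4 arrays in every probe set (largest deviation 5.0e-07), so levels are unknown, and array medians lay between -0.0152 and 0.0066. The log base is not stated. Precision is limited by the number of arrays.

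Brightness classes, in log2, rest on the step size of single-precision numbers in differences between arrays. Class 8 or above took 26.5% of probe sets, class 4 to 8 took 37.3%, class below 4 (called dim) took 35.6%, and 0.7% had no class. By chance some probe sets fall into the next brighter class. The brightest class represents a gene, then probe sets without a letter suffix, then the identifier. This class replaces the mean level, which centring removed. Of 54675 probe sets 41097 had 1 gene symbol, 1801 several and 11777 none here; Affymetrix controls were left out. Of 19775 genes 19735 matched RefSeq by gene identifier.

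Differences, SEs and p-values came from limma 3.58.1 in R 4.3.3, two-sided with Benjamini-Hochberg adjustment over all genes and a threshold of 0.05, with no replicate block. A 3-group fit gave siRNA-2 minus siRNA-1. The fits were tested on simulated data. With 2 arrays per group the smallest p of an exact permutation test is 0.33, so none was run. Same-numbered control and knockdown arrays shared deviations with a correlation of 0.04 over genes. Members and lists were chosen with earlier results of these data known. Named are all members, KDM1A, all KLF and SP genes, up to 3 non-overlapping genes per other list with the largest difference, and the 3 genes nearest the most shifted member.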

Additional observations from a re-analysis of the deposited data

Results flagged for a closer look

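In 2 probe sets of the members the knockdown arrays lay beyond both controls on opposite sides. KLF13 225390_s_at read -0.66 (siRNA-1) and 0.39 (siRNA-2) in LSD1-KD cells, against -0.02 and 0.02 on the control arrays, so that siRNA-2 lay 1.04 higher than siRNA-1 (SE 0.09). KLF9 203543_s_at read -0.29 and 0.19, against -0.04 and 0.04, a difference of 0.48 (SE 0.10). They were found by this difference and each siRNA has 1 array, so no test of it is given, and the SEs rest on the spread of the 2 controls. The difference between the siRNAs was not tested in replicates. Other probe sets of KLF13 differed between the siRNAs by -0.23 to 0.10. Those of KLF9 differed by -0.46 (228474_s_at) to 0.25 (203542_s_at), so no single direction can be given for KLF9.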

How the results depend on the processing

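The 6 members below both controls were 4 to 9 in number over 9 alternatives. The 1 member above became 0 when probe sets were averaged and 2 without _x_at and _s_at sets, and ranged from 1 to 2 when single arrays were left out (2 without siRNA-1 or without control 1). KLF11 turned to 0.31 when averaged and to 0.82 without _x_at and _s_at sets, and KLF3 to -0.37 when averaged; these settings read other probe sets. KLF9 (0.03 without siRNA-1, 0.01 without control 2), KLF13 (0.02 without control 2) and KLF2 (-0.05 without siRNA-2, -0.15 without _x_at and _s_at sets) change sign near 0. KLF5 ran from -1.64 to -1.24, KLF4 from -0.85 to -0.24, KLF6 from -0.72 to -0.23 and KLF10 from -0.55 to -0.24. Without _x_at and _s_at sets KLF4, KLF9 and KLF10 have no value. Each list median was compared under several alternatives: in 34 comparisons it moved by less than 1 SD between replicates and in 18 by more. Small moves can count as more, such as the immediate-early median of -0.33 with array medians at 0, beside -0.34.

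Over all genes, 1 was higher and 0 were lower on knockdown. The higher count was 0 when probe sets were averaged, without dim genes, with robust moderation, with 1 test per probe set and with the replicate block. Without single arrays it ran from 0 to 2611 and the lower count from 0 to 1983, the highest without siRNA-1. Quantile normalization, which acted on the centred values and gave every array the same spread, gave 278 and 129. Between the siRNAs 783 were higher and 556 lower with siRNA-2, and the counts were 1231 and 877 when probe sets were averaged, 347 and 260 without _x_at and _s_at sets, 1969 and 1233 with array medians at 0, 1728 and 1194 without dim genes, 0 and 0 with quantile normalization, and 0 and 0 with 1 test per probe set, an alternative chosen after seeing the data. The cause was not tested. Brightness of a probe set over background is unknown, and limits the dim probe sets.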

Other observations

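Transcripts next to KLF genes are read by the same arrays. The antisense gene KLF3-AS1 overlapped the controls in both of its probe sets, with differences of 0.06 ± 0.11 and 0.02 ± 0.17. The 4 probe sets of KLF3 itself lay beyond both controls in opposite directions, 3 below and 1 above. Of all single-gene probe sets, 26.8% lay below and 22.0% above. The divergent transcript KLF9-DT, read by a dim probe set, read 0.02 and -0.14 in LSD1-KD cells, against -0.02 and 0.09 in control cells. It overlapped the controls, as the representing probe set of KLF9 did, though other KLF9 probe sets lay below or above them.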
